A study of Mus musculus with 38 samples.

Results

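Transcripts of 29 genes of glutamate signalling were followed in mouse tissue microdissected from the adBNST, the anterodorsal subdivision of the stria terminalis's bed nucleus. It is a forebrain region known for its role in anxiety and stress hormone release. The genes were taken from a list by name, and were 29 of the 25230 genes in the count table. They were 3 vesicular glutamate transporters, 1 plasma membrane transporter, 4 AMPA, 1 delta, 5 kainate and 6 NMDA receptor subunits, 6 metabotropic receptors and 3 proteins that bind AMPA receptors. All 29 were among the 16309 genes with enough counts to be tested.

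All mice carried the genotype label WT. The 4 groups were stressed males (9 libraries), control males (10), stressed females (9) and control females (10). Stressed mice went through 6 weeks of variable mild stress with randomised stressors, and the controls are labelled only as control. The labels give no ages. The labels number the libraries within each group but do not say that each came from a separate animal or whether animals were pooled, so p-values measure the spread between libraries.

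Glutamate is the main excitatory transmitter of the brain. Vesicular transporters load it into synaptic vesicles, AMPA and kainate receptors carry fast currents, NMDA receptors admit calcium and take part in synaptic plasticity, and metabotropic receptors act through G proteins. Most neurons of the bed nucleus release GABA and receive glutamate from cortex, hippocampus and amygdala, so receptor transcripts come from many cells. Vesicular transporter transcripts come from cells that load glutamate into vesicles. The counts do not place those cells within the bed nucleus or in adjoining tissue. In bulk tissue, fewer cells of a type and less RNA per cell cannot be told apart.

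The AMPA receptor subunits Gria1 to Gria4 all carry a glutamine codon at a position of the channel pore known from RNA editing. In Gria2 that codon is edited in the transcript so that the protein reads arginine, which keeps calcium out of the channel. The stretch around it shows how alike the 4 transcripts are where they are counted as separate genes. The sequences below are from GENCODE M21 transcripts (GRCm38), with the codon edited in Gria2 and its counterparts in capitals.
Gria1: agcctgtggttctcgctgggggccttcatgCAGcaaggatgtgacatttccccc
Gria2: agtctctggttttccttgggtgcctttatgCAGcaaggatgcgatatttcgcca
Gria3: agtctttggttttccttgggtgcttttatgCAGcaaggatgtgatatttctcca
Gria4: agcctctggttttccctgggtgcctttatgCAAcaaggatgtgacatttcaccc
The codon was CAG in Gria1, Gria2 and Gria3 and CAA in Gria4. Over these 54 bases the pairs were 79.6% to 92.6% identical, and the longest run of identical bases in any pair was 17. Over whole transcripts, 0 of the 50-base words of Gria1 and 0.733% of those of Gria2 also occurred in another gene. Gene counts carry no information on editing.

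Total counts were 15.9 to 36.1 M per library in stressed males, 9.06 to 84.8 M in control males, 14.6 to 35.3 M in stressed females and 18.1 to 33.8 M in control females. The 29 genes took 0.387% to 0.558% of the counts of a library, and the lowest count of any of them in any library was 37. Summed over 6 markers of the bed nucleus, the level was 125 to 201 CPM, a gene's counts scaled to a common library size, in stressed males, 110 to 224 in control males, 116 to 217 in stressed females and 114 to 223 in control females. GABA neuron markers summed to 1399 to 2521 CPM over all groups. Libraries of control females 1 and 6, control male 3 and stressed females 1 and 2 stood apart from the other 33 in an earlier account of these data. The summed level of 6 oligodendrocyte markers ran from 19820 to 25020 CPM in these 5 libraries and from 4302 to 15350 CPM in the other 33. Choroid plexus markers summed to 3124 CPM in stressed male 5 and to 9.03 to 58.8 CPM in the remaining libraries.

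Per kilobase of transcript, Gria1 and Gria2 had the highest levels of the 29. Gria1, a subunit of AMPA receptors known for its part in plasticity, averaged 224 ± 13.9 CPM per kilobase, and Gria2 averaged 211 ± 66.4 (SD, n = 38), a difference within their spread. Cnih2, a cornichon protein that slows the closing of AMPA channels, followed at 164 ± 88.8 CPM per kilobase and came before Gria1 when the longest transcript set the length (141 against 138).

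In each of the other classes with several genes a single gene led on the same per-kilobase scale. Grm5, a metabotropic receptor coupled to calcium release, averaged 125 ± 39.0, Grik5, a kainate subunit that needs a partner subunit to form channels, 114 ± 28.1, and Grin1, the obligatory NMDA subunit, 109 ± 28.2. These 3 did not differ beyond their SDs. Slc1a1, a neuronal glutamate uptake carrier, averaged 54.1 ± 5.09, and Grid1, a delta subunit that binds synaptic organisers, 32.5 ± 6.23. The vesicular transporters were low, with Slc17a6 (VGLUT2) at 12.5 ± 7.88, Slc17a8 (VGLUT3) at 2.86 ± 1.13 and Slc17a7 (VGLUT1), the form of cortical neurons, at 2.12 ± 1.14, the lowest of the 29.

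**Figure D1:**
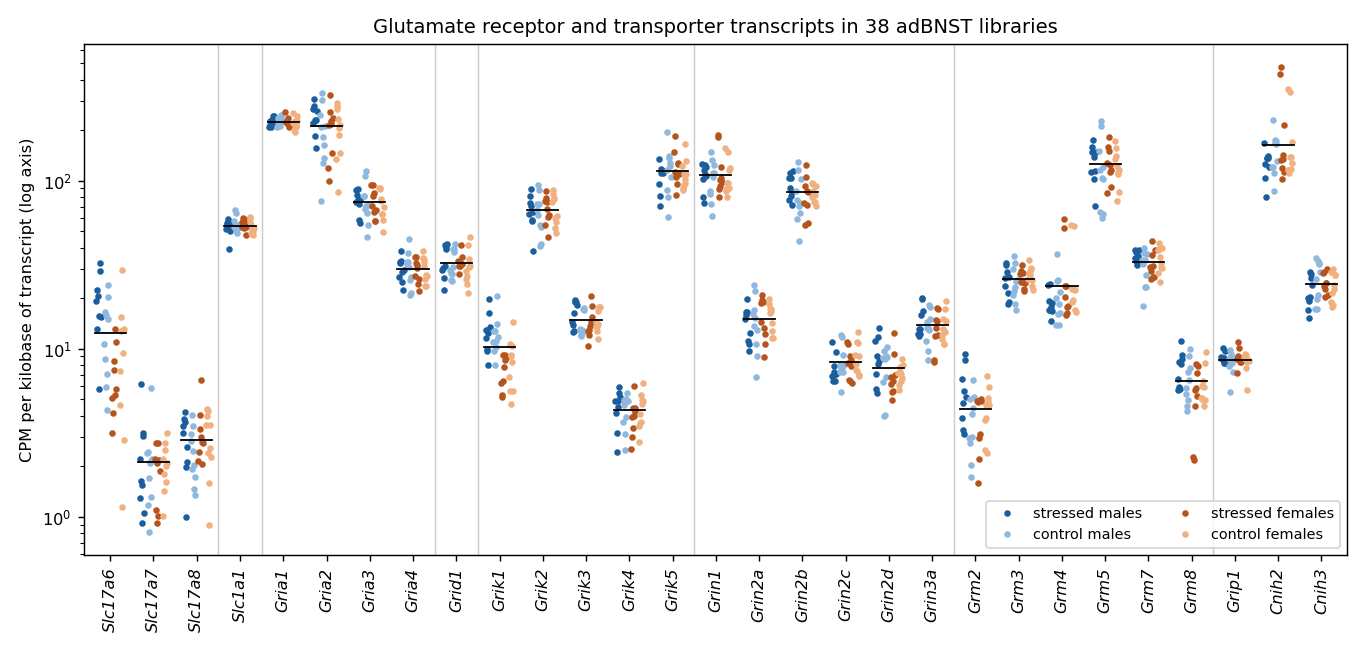
Level of each of the 29 genes in each library, in CPM per kilobase of transcript on a log axis, with 1 point per library coloured by group and a bar at the mean of 38 libraries. Gria1 lies highest at 224 and Slc17a7 lowest at 2.12, and the 4 groups overlap for every gene.

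The genes also differed in how much they varied between libraries of 1 group. Gria1 had the smallest spread of the 29, an SD of 0.09 on the log2 scale within groups, and Slc17a6 the largest at 0.94. The median was 0.36 for the 29 genes and 0.34 for all genes tested.

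Male and female mice differed most clearly in Grik1, which encodes the kainate receptor subunit GluK1. It lies at chr16:87895901-88290863 (GRCm38.p6). Its level ran from 24.7 through a median of 38.2 to 61.0 CPM in stressed males and from 24.8 through 35.3 to 63.3 in control males. In stressed females it ran from 16.03 through 24.1 to 28.5 CPM, and in control females from 14.4 through 26.8 to 44.7. Of the stressed males 8 of 9 lay above every stressed female, and of all males 17 of 19 lay above the female median, while the ranges of males and females still overlapped.

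Averaged over conditions, Grik1 was higher in males, at 38.3 ± 10.47 CPM against 24.6 ± 7.49 CPM in females (SD, n = 19 each). The log2 difference was 0.65 ± 0.13 (SE), a ratio of 1.57, with an adjusted p of 0.0081 by edgeR's quasi-likelihood test. It was the 1 gene of the 29 that passed, where 0.215% of all genes tested did, 0.141% higher and 0.0736% lower in males. At an unadjusted p under 0.05 there were 5 of the 29, against 9.6% of all genes. This average over conditions was added after the values in each condition had been seen. Leaving out each library in turn kept Grik1 past the threshold in 38 of 38 fits, with adjusted p values of 0.0014 to 0.0200. Without the 5 libraries that stood apart the difference was 0.56 ± 0.13 with an adjusted p of 0.0645, and within libraries numbered 6 to 10 and 1 to 5 it was 0.74 ± 0.18 and 0.55 ± 0.14 with adjusted p values of 0.313 and 0.420.

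Within each condition the same direction was seen for Grik1. In stressed mice it was 0.77 ± 0.19 with an adjusted p of 0.161 by edgeR, and it passed by DESeq2 (0.78 ± 0.19, adjusted p = 0.0359) and by limma voom with quality weights (0.73 ± 0.15, adjusted p = 0.0277). In control mice it was 0.52 ± 0.18 with an adjusted p of 0.747. Male minus female differed between the conditions by 0.25 ± 0.25, which did not pass (adjusted p = 0.853).

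Other kainate subunits did not share this pattern. Grik2, Grik3, Grik4 and Grik5, which combine with one another in heteromeric receptors, had male minus female values of -0.05 ± 0.11, 0.03 ± 0.08, 0.07 ± 0.11 and -0.06 ± 0.11 averaged over conditions, and none passed. All 4 AMPA subunits lay within 0.02 to 0.08, including X-linked Gria3 at 0.03 ± 0.10.

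**Figure D2:**
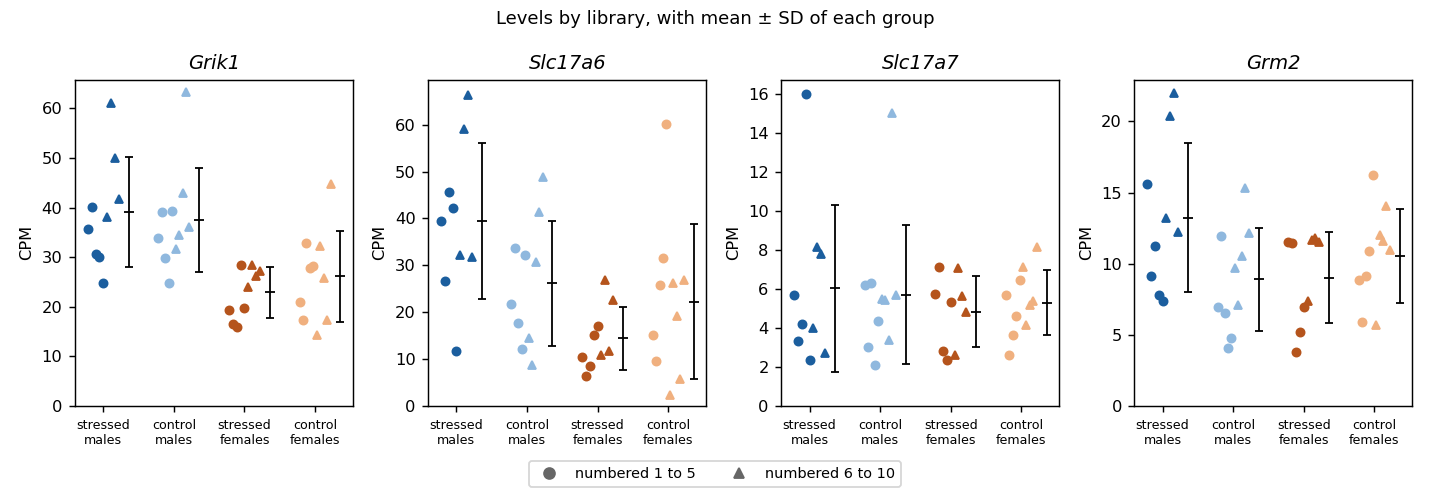
CPM of Grik1, Slc17a6, Slc17a7 and Grm2 in each library, with circles for libraries numbered 1 to 5, triangles for those numbered 6 to 10 and bars for the mean ± SD of each group (n = 9 stressed and 10 control). Grik1 averages 39.1 and 37.6 CPM in stressed and control males and 22.9 and 26.2 CPM in stressed and control females.

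The numbers of genes that passed between the sexes within a condition were small. In stressed mice 0 of the 29 passed by edgeR, against 0.0858% of all genes tested (0.0797% higher and 0.00613% lower in males), and 6 of the 29 had an unadjusted p under 0.05, against 11.1% of all genes. In control mice 0 of the 29 passed, against 0.0674% (0.0491% higher and 0.0184% lower in males), and 1 of the 29 had an unadjusted p under 0.05, against 4.16%. By DESeq2 and voom 1 gene each, Grik1, passed in stressed mice and 0 in controls. At an unadjusted p under 0.05 these methods gave 6 and 4 genes in stressed mice and 1 and 2 in controls. Their shares of all genes are not given here, so their counts cannot be placed above or below a background.

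Slc17a6 (chr7:51621830-51671126), which loads glutamate into vesicles in subcortical neurons, had the largest of these differences in size. Its level ran from 11.8 through 39.5 to 66.4 CPM in stressed males and from 8.80 through 26.3 to 48.8 CPM in control males. The 11.8 CPM was that of stressed male 5, the library with the high choroid plexus sum. In stressed females it ran from 6.47 through 11.8 to 26.9 CPM, and in control females from 2.34 through 22.6 to 60.2 CPM. Among stressed mice 7 of 9 males lay above every female, and among controls no male did.

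Male minus female was 1.45 ± 0.39 for Slc17a6 in stressed mice and 0.24 ± 0.36 in controls, with adjusted p values of 0.288 and 1.00 by edgeR. Measured against Slc17a7 within each library, the log2 ratio of Slc17a6 averaged 2.82 ± 0.64 in stressed males and 1.54 ± 0.84 in stressed females (SD, n = 9 each). This difference of 1.28 ± 0.35 passed an exact two-sided permutation test (p = 0.0023, adjusted p = 0.0362 over 16 tests). The other 15 ratio tests, which covered Grin2a to Grin2b, Gria1 to Gria2 and Cnih2 to Cnih3 as well, had adjusted p values of 0.437 to 0.925. Without the 5 libraries that stood apart the Slc17a6 to Slc17a7 difference was 0.94 ± 0.29 with an adjusted p of 0.154.

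Of 6 listed markers of cortex and other pallium 5 were tested, and none passed between the sexes in stressed mice. Tbr1 averaged 15.1 ± 5.72 CPM in stressed males and 5.06 ± 2.496 in stressed females, and Nrn1 averaged 13.5 ± 4.49 and 5.55 ± 1.11 CPM in the same groups (SD, n = 9 each). Neurod2 averaged 0.690 ± 0.442 CPM in stressed males and 1.03 ± 0.655 in stressed females, and Neurod6 0.467 ± 0.410 and 0.452 ± 0.314 CPM. The summed level of the list, mostly Tbr1 and Nrn1, ran from 13.3 to 41.2 CPM in stressed males, 8.59 to 32.8 in control males, 8.85 to 18.7 in stressed females and 7.00 to 50.4 in control females. Of the 6 markers, 1 had no count in some library of stressed males, 0 in control males, 1 in stressed females and 2 in control females. The list's part in the Slc17a6 values was not tested.

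RefSeq lists a pair of start sites for Slc17a6 on GRCm38.p6. The 250 bases before the downstream one, chr7:51624387-51624636 on the plus strand, hold the CREB core motif TGACG, printed here in capitals because this gene had the widest range of the 29.
Slc17a6: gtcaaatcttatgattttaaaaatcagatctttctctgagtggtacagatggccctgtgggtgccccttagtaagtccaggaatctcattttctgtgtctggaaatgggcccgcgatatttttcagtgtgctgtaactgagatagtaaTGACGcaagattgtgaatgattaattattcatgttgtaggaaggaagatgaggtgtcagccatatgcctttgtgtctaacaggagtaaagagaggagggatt
On either strand TGACG occurred in 17.7% of 32817 such windows. Of the 20 listed genes with at least 1 window, 4 held it in any of their windows (Slc17a6, Grin1, Grm8 and Grip1). The listed genes had 27 windows, with 2 for Slc17a6 and 3 each for Grm8 and Grip1. Counts per gene and shares per window are therefore unlike measures, here and for the motifs below. The full CREB site TGACGTCA, which contains TGACG, occurred in 1.55% of windows and 0 of the 20 genes. The estrogen receptor core AGGTCA occurred in 14.0% of windows and 1 of 20 genes (Grin2c), and the glucocorticoid and androgen receptor core AGAACA in 16.1% of windows and 2 of 20 genes (Grm8 and Cnih2).

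On the other side, 2 genes had lower estimates in males that rested on the libraries that stood apart. Grm4, a presynaptic receptor that lowers transmitter release, had a median of 49.0 CPM in stressed males, 53.5 in control males, 56.4 in stressed females and 62.5 in control females. Its values ran from 101 to 165 CPM in the 5 libraries that stood apart and from 38.2 to 71.0 in the other 33, so these did not overlap. Neither did the oligodendrocyte sums given above. The striatal marker Drd2 ran from 182 to 220 CPM in the 5 libraries and to at most 146 in the others. Adora2a, also striatal, ran from 165 to 268 against at most 158, and the neuronal marker Rbfox3 from 294 to 420 against at most 233. The other striatal and neuronal markers overlapped. The part of oligodendrocyte, striatal and neuronal content in the Grm4, Cnih2, Grin1 and Gria2 values was not tested. Male minus female for Grm4 was -0.47 ± 0.18 averaged over conditions (adjusted p = 0.384), and -0.07 without those 5 libraries.

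Cnih2 behaved alike, with 267 to 548 CPM in the 5 libraries and 92.0 to 247 in the other 33. In stressed mice its male minus female value was -0.70 ± 0.27 (adjusted p = 0.378), and -0.10 ± 0.14 without the 5. Grin1 also had no overlap, at 434 to 550 CPM in the 5 libraries against 182 to 388 in the others, while Gria2 ran lower, from 316 to 560 against 527 to 1383 CPM. The 5 libraries were set apart from these same data, and the share of all genes without such overlap is not given here. The lack of overlap is therefore not read as particular to Grm4, Cnih2 and Grin1. For Grin1 8.24% of 50-base words occur in other genes, among them its antisense partner Grin1os, so its counts are less certain.

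Stress gave no call among the 29 genes in either sex. In males 0 of 29 passed by edgeR, where 0% of all genes tested did, and in females 0 of 29 passed, again against 0%. At an unadjusted p under 0.05 there was 1 gene of 29 in males, against 4.02% of all genes, and 0 in females, against 1.89%. DESeq2 and voom also gave 0 adjusted calls in each sex, with 1 and 1 genes at an unadjusted p under 0.05 in males and 0 and 2 in females. The shares of all genes by DESeq2 and voom are not given here.

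In males 19 of the 29 estimates lay above 0, with a median log2 change of 0.06 against -0.02 for all genes tested. In females 14 of 29 lay above 0, with a median of -0.01 against 0.01. The shares of all genes above 0 are not given here, so these counts are not read as particular to the 29. Over all genes with known transcripts, Spearman's rho between stress estimate and transcript length was 0.44 in males and -0.25 in females. With transcript GC content it was -0.29 and 0.02. The part of length and GC content in the estimates of the 29 was not tested. Leaving out single libraries changed the sign for 9 of the 29 genes in males and for 12 in females.

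**Figure D3:**
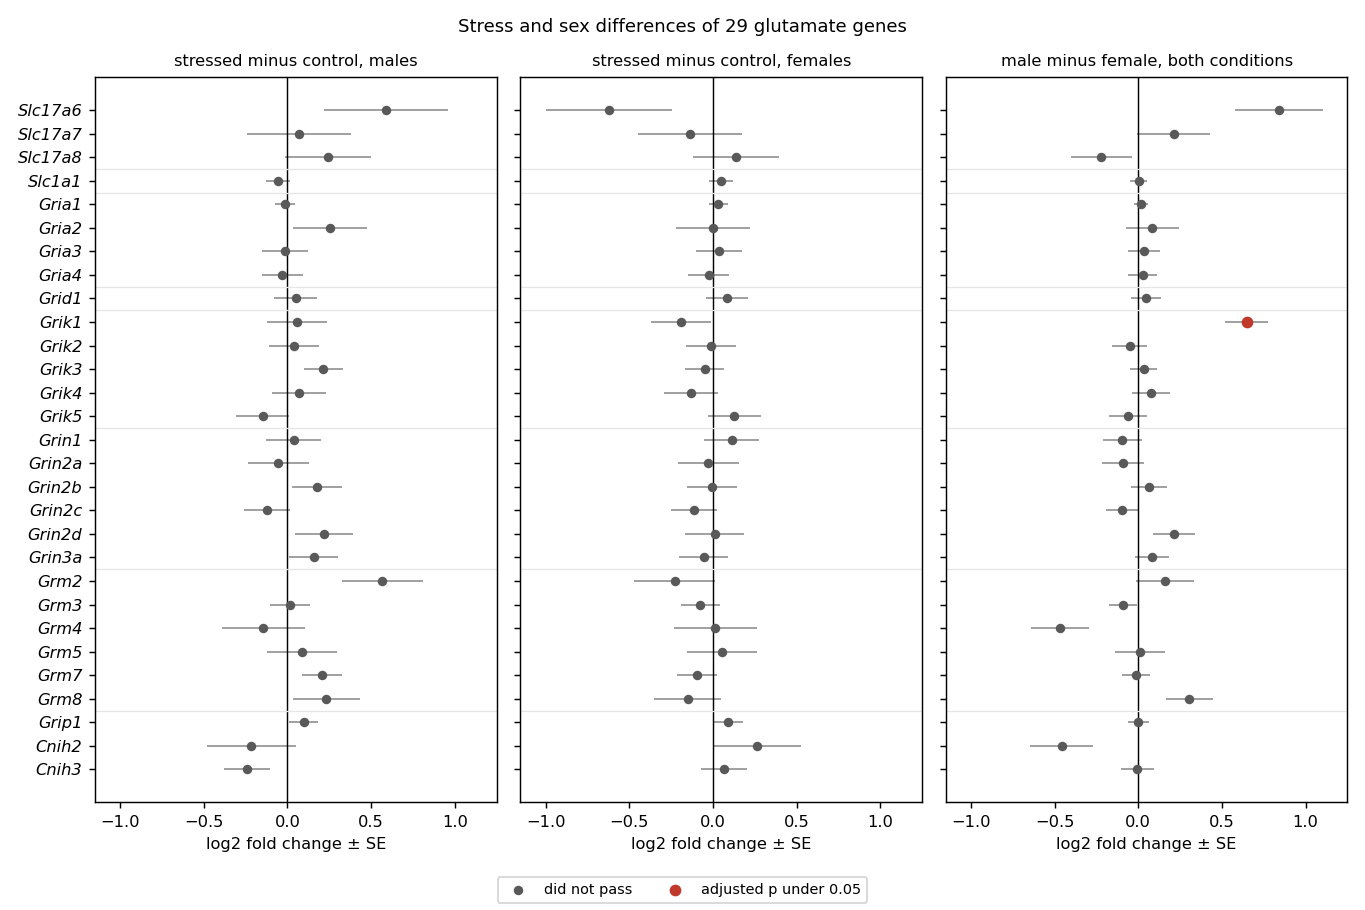
Log2 fold change ± SE of each of the 29 genes for stressed minus control males, stressed minus control females and male minus female averaged over conditions, with lines between classes. The 1 red point, Grik1 at 0.65, has an adjusted p under 0.05 by edgeR, and grey points did not pass.

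Grm2 (chr9:106644534-106656109) had the smallest p for stress in males. It encodes a presynaptic receptor that reduces glutamate release. Its level ran from 7.35 through 12.2 to 22.01 CPM in stressed males and from 4.10 through 8.38 to 15.3 in control males, and 3 of 9 stressed males lay above every control male. In stressed females it ran from 3.77 through 11.4 to 11.8 CPM, and in control females from 5.69 through 10.9 to 16.2, with the groups overlapping.

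The stress change of Grm2 was 0.57 ± 0.24 in males (unadjusted p = 0.0245, adjusted p = 0.863) and -0.23 ± 0.24 in females (adjusted p = 1). The difference between these, males minus females, was 0.80 ± 0.34 and did not pass (adjusted p = 0.845). In males the estimate was 0.63 ± 0.25 in libraries numbered 6 to 10 and 0.57 ± 0.33 in those numbered 1 to 5. For Grm2 8.53% of 50-base words also occur in Gm28111, so its counts are less certain.

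Slc17a6 had stress estimates of opposite sign, 0.59 ± 0.37 in males (adjusted p = 0.863) and -0.62 ± 0.38 in females (adjusted p = 1). The difference between the sexes was 1.21 ± 0.53 and did not pass (adjusted p = 0.845). In females the estimate was 0.15 ± 0.55 in libraries numbered 6 to 10 and -1.29 ± 0.44 in those numbered 1 to 5. For the interaction 0 of the 29 genes passed by edgeR, DESeq2 and voom, against 0% of all genes by edgeR. At an unadjusted p under 0.05 there were 2, 2 and 3, where edgeR gave 4.51% of all genes. For DESeq2 and voom that share is not given here.

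The smallest p values on the other side of each stress comparison belonged to AMPA receptor partners. Cnih3, the second cornichon, ran from 22.2 through 29.5 to 41.9 CPM in stressed males and from 25.0 through 39.8 to 50.7 in control males, a change of -0.24 ± 0.14 (adjusted p = 0.863). Grip1, a scaffold that anchors AMPA receptors, ran from 25.9 through 31.5 to 40.0 CPM in stressed females and from 20.6 through 31.0 to 33.9 in control females, a change of 0.09 ± 0.09 (adjusted p = 1). In both the groups overlapped.

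Averaged over the sexes, stress gave 0 calls among the 29 by edgeR, DESeq2 and voom, against 0% of all genes by edgeR, and 0 at an unadjusted p under 0.05 by any of the 3, where edgeR gave 1.47% of all genes. Grip1 had the smallest p at 0.10 ± 0.06, and Grin2c, an NMDA subunit of glia and a few neurons, the smallest below 0 at -0.12 ± 0.10. For the ionotropic subunits these averages ran from -0.12 to 0.13, and Gria1 was narrowest at 0.01 ± 0.04.

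The estimates bound the stress changes that these libraries could hold. Intervals of ± 2 SE lay within a 2-fold change for 27 of 29 genes in males, the exceptions being Slc17a6 and Grm2, and for 28 of 29 in females, the exception being Slc17a6. These intervals came from the fit without a term for label number. With that term the SEs for stress in females were 0.09 for Gria3, 0.12 for Grin2a and 0.38 for Slc17a6. Without it, by edgeR with DESeq2 size factors, they were 0.14, 0.18 and 0.38. In counts simulated for stress in females, edgeR recovered 95.5% of genes with a log2 change of 1 and 19.4% of genes with a change of 0.5. The simulation gave every gene the same biological coefficient of variation, 0.266, and no difference by label number. Within groups the 29 genes had SDs of 0.09 to 0.94 on the log2 scale, so these rates do not carry over to each of them.

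More of the 29 genes passed between label numbers than between the sexes or with stress. Libraries numbered 6 to 10 were set against those numbered 1 to 5 within groups, both sets holding all 4 groups. The labels do not say what the numbers stand for. This split was chosen because an earlier account of these data had seen the sets of numbers differ, so its p-values describe a division picked from the same counts. Of the 29 genes 17 (58.6%) passed edgeR's test, where 45.5% of all genes did, with 9 higher and 8 lower in numbers 6 to 10. Among all genes 23.2% were higher and 22.3% lower. At an unadjusted p under 0.05 there were 20 of the 29, against 52% of all genes. The 17 also passed by DESeq2, by voom and without the 5 libraries that stood apart, and the counts there were 19, 23 and 23 of the 29, beside 7752, 10028 and 9604 of all genes. Without the 5 libraries the added genes were Gria2 (-0.50), Grin2b (-0.33), Grm7 (-0.20), Grin1 (0.32), Cnih2 (0.30) and Grik5 (0.28), with adjusted p values by edgeR of 1.9e-05 for Gria2 to 0.0135 for Grm7.

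Grin2a, the NMDA subunit that rises as synapses mature, had the smallest p. It ran from 33.8 through 57.1 to 82.5 CPM in numbers 6 to 10 and from 67.2 through 85.1 to 119 in numbers 1 to 5, ranges that overlapped between 67.2 and 82.5. The difference was -0.62 ± 0.08 (adjusted p = 1.78e-07), and 11.6% of its 50-base words occur in other genes. Its partner Grin2b, the NMDA subunit prominent early in life, was at -0.23 ± 0.10 and did not pass by edgeR (adjusted p = 0.0638), but passed by voom (-0.22 ± 0.07, adjusted p = 0.0061) and without the 5 libraries that stood apart (-0.33 ± 0.10, adjusted p = 0.0032).

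Among other ionotropic subunits the direction differed by gene. Gria3 ran from 159 through 217 to 264 CPM in numbers 6 to 10 and from 232 through 287 to 391 in numbers 1 to 5, and fell by 0.45 on the log2 scale. Gria4 (-0.40 ± 0.06) and the kainate subunit Grik2 (-0.47 ± 0.07) also fell. Grid1 ran from 70.2 through 89.8 to 106 CPM in numbers 6 to 10 and from 49.5 through 64.7 to 76.8 in numbers 1 to 5, a rise of 0.43 ± 0.06. Grik3 (0.38 ± 0.05), Grik4 (0.46 ± 0.09) and Grik1 (0.34 ± 0.12) rose too, as did the NMDA subunits Grin3a, which lowers calcium entry, and Grin2d.

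Metabotropic receptors were split in the same way. Grm5 (-0.53 ± 0.12) and Grm3 (-0.29 ± 0.07), a receptor of glia as well as neurons, were lower in numbers 6 to 10, and Grm8 (0.50 ± 0.12) and Grm2 (0.48 ± 0.15), presynaptic receptors, were higher. Cnih3 was higher at 0.32 ± 0.08, and the transporters Slc1a1 and Slc17a8 were lower at -0.17 ± 0.04 and -0.56 ± 0.16. For Slc1a1 31.0% of 50-base words occur in 4430402I18Rik, which makes its counts less certain.

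**Figure D4:**
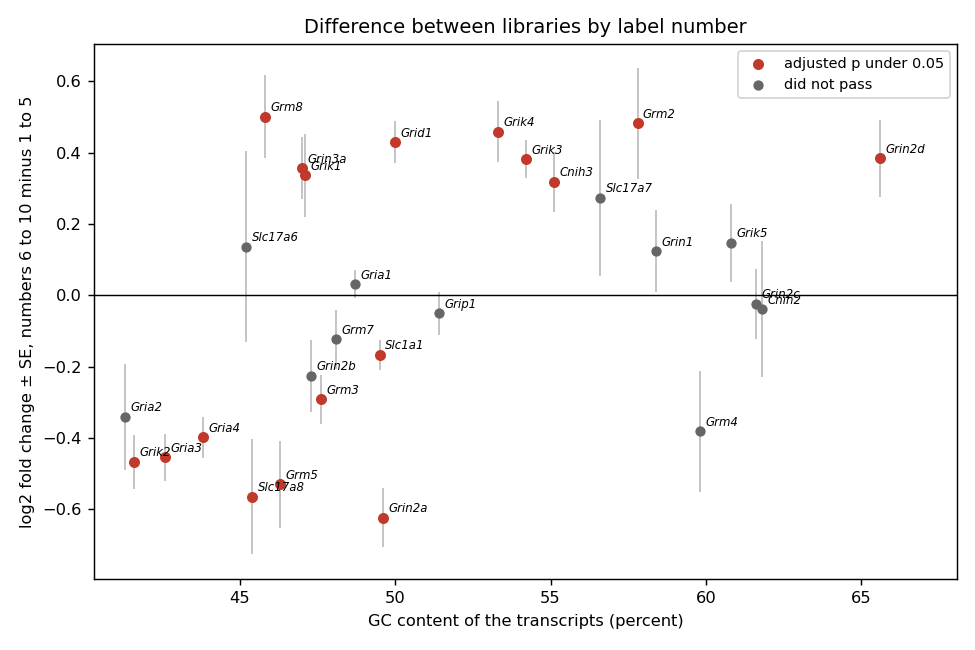
Log2 fold change ± SE between libraries numbered 6 to 10 and 1 to 5, plotted for each of the 29 genes against the GC content of its transcripts in percent, with genes of adjusted p under 0.05 in red. The 8 genes that were lower have transcripts of at most 49.6% GC, and the 9 that were higher run from 45.8% to 65.6% GC.

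Transcript GC content went with the direction. Its median was 53.3% in the 9 higher genes, 45.9% in the 8 lower ones and 53.96% in the 12 that did not pass, and over all genes the medians were 53.8%, 45.5% and 50.3%. Across the 29 genes Spearman's rho between GC content and the log2 difference was 0.42, and across 16036 genes it was 0.43, a description over genes of the same libraries. With transcript length rho over all genes was 0.03. Such a pattern was not limited to label numbers. For sex in stressed mice rho over all genes was -0.25 with GC content and 0.38 with length. For the interaction it was -0.21 and 0.43, and for sex in controls -0.07 and -0.14.

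Tissue markers moved with the label numbers as well. All 6 oligodendrocyte and all 7 striatal markers were lower in numbers 6 to 10, with median log2 differences of -0.92 and -0.74, and all 3 ependymal markers were higher, with a median of 1.29. The summed level of the bed nucleus markers ran from 114 to 224 CPM in numbers 6 to 10 and from 110 to 170 CPM in numbers 1 to 5. Within that list Prkcd ran from 20.35 to 110 CPM in numbers 6 to 10 and from 9.29 to 49.5 in numbers 1 to 5. Crh ran from 4.72 to 39.3 and from 14.2 to 26.7 CPM, and differences of the other markers on it are not given here. Septal markers summed to 36.8 to 181 CPM in numbers 6 to 10 and to 42.8 to 110 in numbers 1 to 5. Differences of the remaining marker lists are not given here. The part of GC content and of these tissues in the differences of the 29 genes was not tested.

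**Figure D5:**
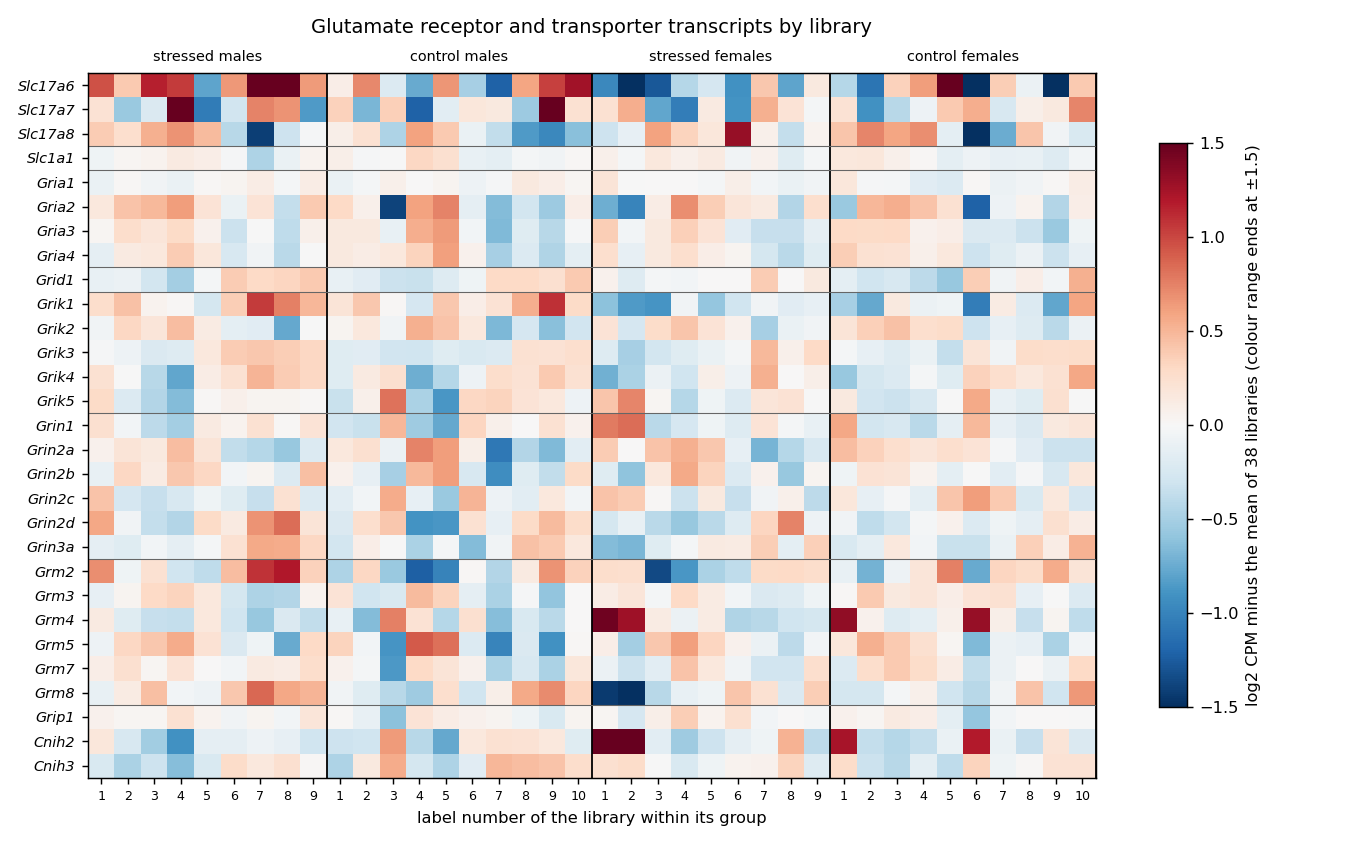
Log2 CPM of each of the 29 genes in each library, minus the mean over 38 libraries, with libraries in columns by group and label number and genes in rows by class, and colours ending at ±1.5. Grin2a and Gria3 run lower and Grid1 and Grik3 higher in the columns numbered 6 to 10, and Grik1 runs higher in the columns of males.

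Of 37 other genes of glutamate signalling, which make, take up or bind glutamate or its receptors, 36 were tested, and 0 passed by edgeR in any comparison of stress or sex. At an unadjusted p under 0.05 there were 1 of 36 for stress in males and 1 for stress in females, against 4.02% and 1.89% of all genes. There were 9 of 36 for sex in stressed mice and 2 for sex in controls, against 11.1% and 4.16% of all genes. The AMPA receptor partner Shisa6 had the smallest p for stress in males (0.57 ± 0.21, adjusted p = 0.863), and the glutamine carrier Slc38a2 for stress in females (-0.32 ± 0.13, adjusted p = 1). Between label numbers 9 of the 36 were higher and 13 lower in numbers 6 to 10, against 23.2% and 22.3% of all genes, with the kainate receptor partner Neto2 at -0.75 ± 0.12.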

How the data were processed

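RNA of 38 adBNST microdissections was extracted, enriched by poly-A tail and made into stranded libraries, per the labels' protocols. The deposited table holds raw counts of reads per gene. The submitters' processing notes name STAR, featureCounts, DESeq2 and mm10. Their versions, the annotation and the strand setting are not given in the sources read, so reads of overlapping or near-identical genes may be shared. Column names identified all libraries, leaving 0 columns unused. Totals were 9.06 to 84.8 M, so 1 count was worth 0.0116 to 0.115 CPM.

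Here counts were tested with edgeR 4.0.16 (filterByExpr by group, TMM, quasi-likelihood, a mean per group, all 38 libraries in 1 fit). The filter kept 16309 genes. The biological coefficient of variation was 0.266. Benjamini-Hochberg adjustment ran over all 16309 genes per comparison, with a threshold of 0.05. Label numbers 6 to 10 and 1 to 5 were compared in a fit with the groups. Levels are CPM on effective library sizes, per kilobase of the mean GENCODE M21 transcript where genes are compared. Ratios used counts plus 0.5, and two-sided permutation tests, exact except for 10 against 10 libraries (100000 resamples), adjusted over 16. The step was tested on simulated data.

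The genes, lists, tests and alternatives were chosen with earlier results of these data known. Described by group were genes that passed (at most the 10 with the smallest p), the smallest p in each direction and the highest gene per class. Grin2b, the other kainate and AMPA subunits in the sex comparison and Slc17a7 were added after their values were seen. Alternatives were DESeq2 1.42.0 and its size factors, limma 3.58.1 voom, no filter, a replicate block, a term for label number, each number set alone, and leaving out libraries. Same-numbered libraries of different groups had a median correlation of deviations of 0.235, over 0.1 in 40 of 55 pairs, and 0.0034 once centred within number sets, so the numbers were not taken to pair libraries.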

Additional observations from a re-analysis of the deposited data

Results flagged for a closer look

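The screen covered 132 sets of values, 116 of 1 gene in 1 group and 16 of 1 ratio in 1 group. In 3 of them, all of genes, the lowest library lay far from the rest of its group, and chance alone flags about 1 in 20 groups. Grip1 was at 20.6 CPM in control female 6, where the next library had 28.01 CPM. It was also lowest at 20.1 CPM in control male 3, where the next had 26.4 CPM. Both libraries are among the 5 that stood apart. Slc1a1 was at 86.1 CPM in stressed male 7, where the next library had 110.7 CPM.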

How the results depend on the processing

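Of 380 counts of passing genes recomputed under other settings, among them refits without single libraries, 375 were classed as the same. That class held equal counts and also moderate changes, such as 17 against 23 genes between number sets. For sex in stressed mice 1 gene passed by DESeq2 and by voom, where edgeR gave 0. For sex averaged over conditions 0 passed without the 5 libraries that stood apart and 0 within either number set, where edgeR gave 1. Between number sets edgeR gave 17 genes, leaving out each library 17 to 19, DESeq2 19, and voom and the fit without the 5 libraries 23 each. The Slc17a6 to Slc17a7 difference in stressed mice did not pass in libraries numbered 6 to 10 (1.31) or 1 to 5 (1.26), without the 5 libraries (0.94) or with the replicate block (1.28, adjusted p = 0.148). With 4 against 4 or 5 against 5 libraries an exact p cannot go below 0.0286 or 0.00794, and with 9 pairs not below 0.00391, so a single such ratio cannot pass over 16 tests.

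In numbers 6 to 10 the sign differed from that in all libraries for 7 of 29 genes under stress in males, 13 under stress in females, 7 by sex in stressed mice and 4 in controls, and in numbers 1 to 5 for 3, 8, 5 and 7. None of these had passed. Of the genes picked by the naming rule, Slc17a6 in females under stress changed sign in numbers 6 to 10 (0.15), as did the ratios Gria1 to Gria2 (-0.37), Slc17a6 to Slc17a7 (0.85) and Cnih2 to Cnih3 (-0.082) in females under stress, Cnih2 to Cnih3 in males under stress (-0.16) and Gria1 to Gria2 by sex in stressed mice (0.084). In numbers 1 to 5 those of Grin2c for stress averaged (0.019) and Grin2a to Grin2b in females under stress (0.048) did. Without the 5 libraries Cnih2 to Cnih3 changed sign in females under stress (-0.045) and by sex in stressed mice (0.030). The causes were not tested. With the label number as a replicate block, 0 genes passed for stress or for sex in either condition, and 1, Grik1, for sex averaged (adjusted p = 0.0045). The shares of all genes in that fit are not given here. It treats same-numbered libraries as matched, although the numbers were not taken to pair libraries, so its p is not read as stronger evidence. By length of the longest transcript 18 of 29 per-kilobase levels moved by over 1 SD.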
